A study of Mus musculus with 8 samples.

Results

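Control proB and preB cells, consecutive bone marrow stages, were compared across the whole transcriptome in 4 of the 8 libraries of the study. Both populations came from *Erg* fl/fl mice on a C57BL/6J background, 7 to 10 weeks old and of both sexes, with 2 libraries per stage. These mice carry floxed alleles of *Erg*, the gene of an ETS transcription factor, and no Cre recombinase, so *Erg* was intact at both stages. The proB cells were sorted as Hardy fraction C, by surface markers that include B220+ IgM- IgD- NK1.1- CD11c- CD43+ CD24+, and the preB cells as fraction D, with the same markers except that CD43 was absent. Of the 27179 Entrez genes counted, 12958 reached at least 0.5 CPM (counts scaled to a fixed library size) in at least 2 of the 4 libraries and were tested. The study describes cells sorted independently from a pair of mice per genotype, but the labels do not say which mouse gave which library, so the spread between replicates may hold less than the full difference between animals.

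In proB cells the recombinase joins the gene segments of the immunoglobulin heavy chain. A productive heavy chain pairs with the surrogate light chain, made of VpreB and λ5, and with the signal chains Igα and Igβ to form the pre-B cell receptor (pre-BCR). Signals from this receptor and from the interleukin-7 receptor drive a burst of division, after which small preB cells leave the cycle and open the light chain loci for recombination.

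Each library held 17053431 to 18457632 counts, at which 3 counts correspond to 0.163 to 0.176 CPM. Replicates correlated at a Pearson r of 0.996 (proB) and 0.997 (preB) across genes on the log2 CPM scale, and the biological coefficient of variation was 5.93%. Both *Xist*, which is transcribed from the inactive X chromosome of female cells, at 467 to 1030 CPM, and the Y-linked *Ddx3y*, at 87.1 to 103 CPM, were present in every library, which a single male or female mouse would not give. The 5 sex-linked genes read as a check (*Xist*, *Ddx3y*, *Kdm5d*, *Eif2s3y* and *Uty*) were not level between the stages. Their sum was 838 and 710 CPM in proB and 1286 and 991 CPM in preB cells. In the test given below, 3 of the 5 were higher and 1 lower in preB cells, against 31.3% and 32.8% of all genes. In bulk RNA, fewer cells of a kind and less RNA per cell cannot be told apart.

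The switch reached most of the transcriptome. In edgeR's quasi-likelihood test at a Benjamini-Hochberg adjusted p below 0.05, 4060 genes (31.3% of those tested) were higher and 4256 (32.8%) were lower in preB than in proB cells. Of the called genes, 848 (6.54% of those tested) were at least 2-fold higher in preB cells and 1444 (11.1%) at least 2-fold lower. The median log2 fold change of all genes tested was 0.00. When the test asked for a change beyond 2-fold rather than beyond 0, edgeR's glmTreat called 370 genes higher and 717 lower.

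**Figure D1:**
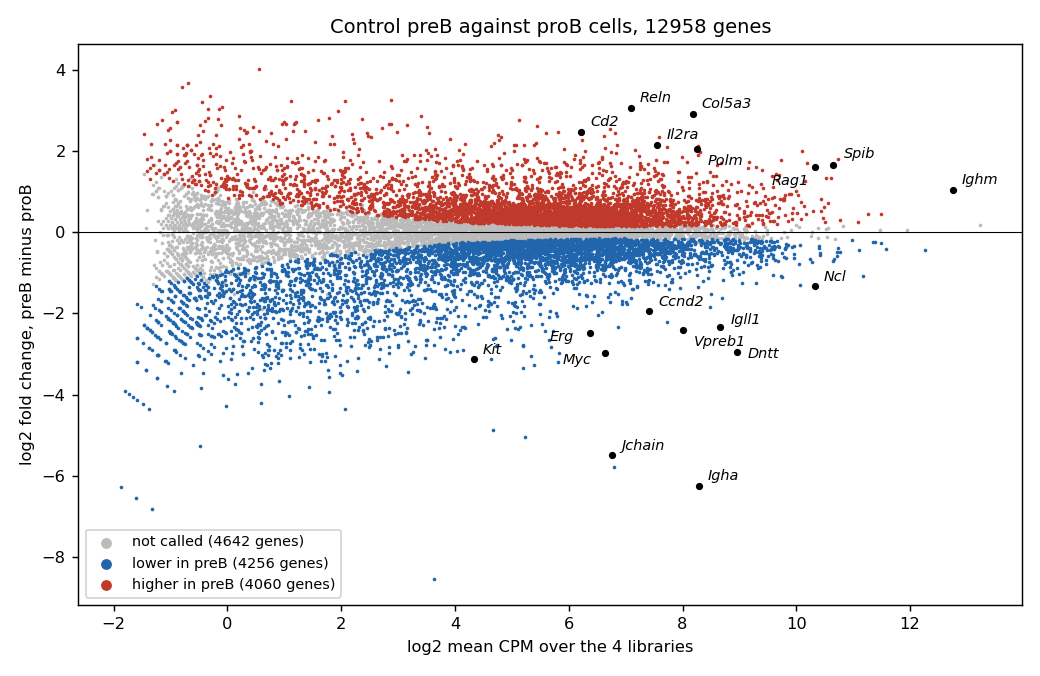
Log2 fold change between control preB and proB cells (vertical) against the log2 of the mean CPM of the 4 libraries (horizontal) for the 12958 genes tested. Red and blue points are the 4060 genes higher and 4256 lower in preB cells at an adjusted p below 0.05 in edgeR's test, grey points the 4642 others, and black points are genes named in the text.

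The genes behind the sort were read as a check of the gate, not as a result. *Spn*, the gene of CD43, fell from 259 and 282 CPM in proB to 106 and 114 CPM in preB cells, the direction of the gate. *Ptprc*, the gene of B220, stood at 382 and 378 CPM in proB and 611 and 615 CPM in preB cells. *Cd24a* was high in all 4 libraries, between 1828 and 2143 CPM. Its lower preB level (adjusted p = 0.0492) was not called under 10 of 17 alternative settings. *Itgax* (CD11c) did not pass 5.34 CPM and *Klrb1c* (NK1.1) did not pass 4.33 CPM in any library.

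Markers of other cells were not equally low in the 2 stages. The counts of called markers here and in the next paragraph stand against 31.3% of all genes higher and 32.8% lower. Myeloid markers (16 genes) summed to 279 and 599 CPM in proB and 159 and 132 CPM in preB cells, with 13 of 16 lower in preB and 1 higher. Markers of plasmacytoid dendritic cells (10 genes) summed to 163 and 201 against 53.8 and 65.0 CPM, with 9 of 10 lower, and those of T cells (13 genes) to 103 and 112 against 34.96 and 40.4 CPM, with 7 of the 8 tested lower. *Cd3e*, *Cd3d* and *Cd3g*, which define T cells, were under the level tested. Early lymphoid progenitor markers (10 genes) summed to 273 and 303 against 244 and 227 CPM, with 8 of 10 lower and 1 higher.

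Markers of natural killer cells (10 genes) stayed between 6.47 and 16.7 CPM in sum, with 4 of 6 tested lower and 1 higher, and those of megakaryocytes (6 genes) between 0.893 and 1.28 CPM, with *Ppbp*, *Gp1bb* and *Treml1* at 0 in all 4 libraries. Erythroid markers (9 of 10 genes in the table) summed to 22.4 and 25.7 CPM in proB and 37.5 and 31.8 CPM in preB cells, with 4 of 7 tested higher. Plasma cell markers (8 genes) summed to 844 and 818 CPM in proB and 639 and 664 CPM in preB cells, with 4 of 7 tested higher and 2 lower. Among them *Jchain*, which joins secreted IgA and IgM into polymers, fell from 216 and 208 CPM to 7.68 and 1.75 CPM. The other lower gene was *Mzb1*, by 0.27 on the log2 scale. The 4 higher were *Prdm1*, *Derl3*, *Sdc1* and *Xbp1*, by 1.09, 0.76, 0.62 and 0.27 on this scale. *Tnfrsf17*, the receptor BCMA of plasma cells, was at 0.563 and 0.427 CPM in proB and at 0.0596 and 0 CPM in preB cells. Markers of immature and mature B cells went the other way, with 9 of 10 higher in preB cells and sums of 448 and 504 against 743 and 789 CPM. The part of such cells in the results below was not tested.

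**Figure D2:**
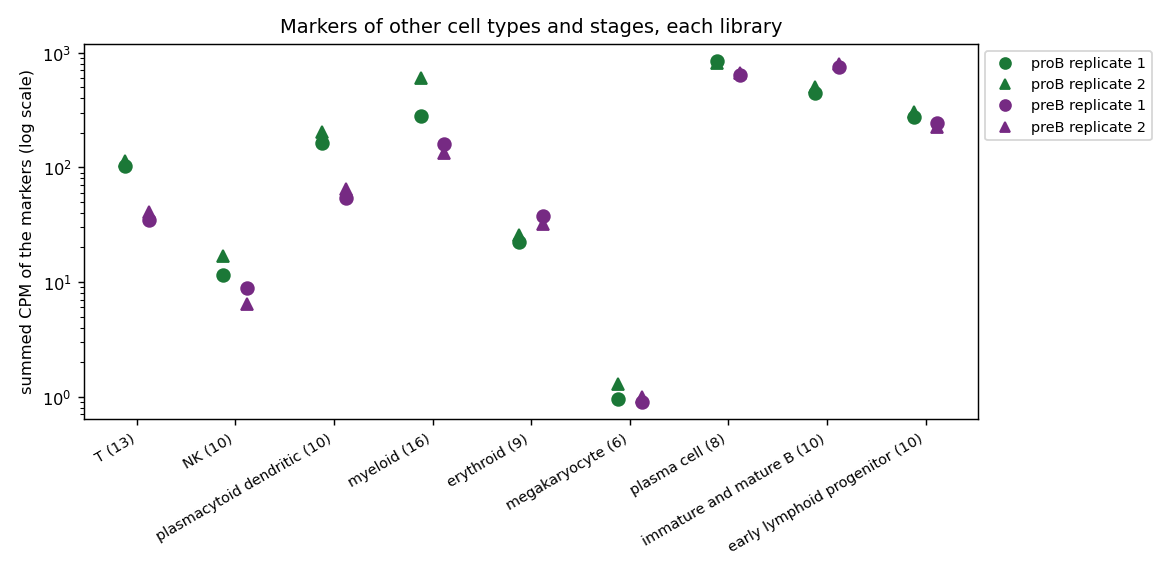
Summed CPM (log scale) of the markers of 9 other cell types and stages in each of the 4 libraries, with the number of markers in the table in brackets. Circles are replicate 1 and triangles replicate 2, proB in green and preB in purple. Myeloid sums in proB replicate 2 reached 599 CPM, against 279 CPM in replicate 1.

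The chains of the pre-BCR changed in opposite directions. All 3 surrogate light chain genes fell in preB cells, while both signal chain genes and *Vpreb3*, a VpreB relative, rose. Of all genes tested, 32.8% were lower and 31.3% higher. *Igll1*, which encodes λ5, stood at 705 and 645 CPM in proB and at 105 and 160 CPM in preB cells, 5.09-fold lower (log2 fold change -2.35 ± 0.16, SE, adjusted p = 2.86e-06). *Vpreb1* went from 449 and 420 CPM to 61.9 and 102 CPM, 5.30-fold lower, and *Vpreb2* from 44.1 and 43.0 CPM to 5.96 and 8.16 CPM, 6.17-fold lower. The proB libraries lay close together and far above both preB libraries, of which replicate 2 kept the higher level of all 3 genes. *Vpreb1* and *Vpreb2* are near-identical paralogues, and how reads shared between them were counted is not given in the sources used here.

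The windows before the annotated starts of these 3 genes are shown because their products belong to the same receptor and all 3 transcripts fell. All lie on chromosome 16 of GRCm38, that of *Igll1* (Entrez 16136) at chr16:16863986-16864235 on the minus strand, that of *Vpreb1* (Entrez 22362) at chr16:16869256-16869505 on the minus strand, and that of *Vpreb2* (Entrez 22363) at chr16:17980315-17980564 on the plus strand. Each is the 250 bases upstream of the start, 5′ to 3′ in the direction of the gene, from RefSeq (GRCm38.p6).
Igll1: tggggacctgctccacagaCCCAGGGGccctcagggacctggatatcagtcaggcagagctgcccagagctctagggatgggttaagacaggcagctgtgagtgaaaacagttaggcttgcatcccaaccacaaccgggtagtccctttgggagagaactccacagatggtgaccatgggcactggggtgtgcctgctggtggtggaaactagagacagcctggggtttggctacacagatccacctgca
Vpreb1: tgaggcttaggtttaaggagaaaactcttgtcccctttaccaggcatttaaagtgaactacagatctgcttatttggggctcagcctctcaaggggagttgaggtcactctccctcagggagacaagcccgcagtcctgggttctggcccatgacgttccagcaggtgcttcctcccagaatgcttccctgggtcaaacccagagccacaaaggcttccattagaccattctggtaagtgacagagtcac
Vpreb2: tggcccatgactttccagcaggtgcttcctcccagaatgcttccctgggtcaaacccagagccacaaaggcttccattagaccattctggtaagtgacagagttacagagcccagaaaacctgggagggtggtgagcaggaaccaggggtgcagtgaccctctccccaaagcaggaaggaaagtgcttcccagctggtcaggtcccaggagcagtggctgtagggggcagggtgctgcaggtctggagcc

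Capitals mark CCCNNGGG, the core of the Ebf1 site, which reads the same on both strands. It occurred 231 bases upstream in *Igll1* and in neither *Vpreb* window, and 13.4% of all 27025 promoter windows in the table (250 bases before to 50 after the start) held it. The *Vpreb1* and *Vpreb2* windows share an identical run of 91 bases, which begins 94 bases before the annotated start of *Vpreb1* and 238 bases before that of *Vpreb2*. The *Vpreb2* window belongs to an annotated start inside the full span of the gene, and other starts were not examined.

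The signal chains rose. *Cd79b* (Igβ) went from 689 and 646 CPM to 1554 and 1669 CPM, 2.41-fold higher (log2 fold change 1.27 ± 0.07, adjusted p = 1.18e-06), and *Cd79a* (Igα) from 808 and 820 CPM to 1277 and 1443 CPM. *Vpreb3* rose from 494 and 475 CPM to 648 and 730 CPM. The stages did not overlap for any of the 3, which held for 83.3% of all genes tested. In a fit that also holds the control pre–proB libraries, *Cd79a* (adjusted p = 0.0922) and *Vpreb3* (adjusted p = 0.209) were not called.

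Of 12 immunoglobulin constant genes 11 were tested, and they parted by class. In preB cells 6 were higher and 5 lower, against 31.3% and 32.8% of all genes. *Ighm*, the μ heavy chain gene, rose from 4607 and 4381 CPM to 9041 and 9577 CPM, 2.07-fold, and *Ighd* from 75.4 and 72.8 CPM to 179 and 159 CPM. *Igkc*, the kappa constant gene, stood at 544 and 710 CPM in proB and 1052 and 1171 CPM in preB cells (log2 fold change 0.83 ± 0.12, adjusted p = 0.00023). The lambda constant genes rose further, *Iglc3* from 32.5 and 36.8 CPM to 165 and 215 CPM, 5.48-fold, and *Iglc1* from 72.1 and 86.2 CPM to 224 and 287 CPM.

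All 5 class-switched genes tested fell, against 32.8% of all genes. *Igha* dropped from 597 and 635 CPM in proB to 10.4 and 5.83 CPM in preB cells, 75.8-fold, the lowest p-value of all genes (adjusted p = 1.53e-07), and *Ighg2b* from 179 and 256 CPM to 4.17 and 3.67 CPM. *Ighg1*, *Ighg2c* and *Ighg3* differed widely between the proB libraries, with *Ighg2c* at 24.7 and 121 CPM. The call of *Ighg1* was lost with robust estimation (adjusted p = 0.105), and that of *Ighg2c* with robust estimation, DESeq2 and limma-voom (highest adjusted p = 0.153). These genes moved with *Jchain* and lie in the same libraries as the *Igkc* reads of proB cells, and the part of antibody-secreting cells in either level was not tested.

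Variable and joining segments were mostly higher in preB cells. All 5 kappa joining genes rose, against 31.3% of all genes. Their sum went from 74.3 and 71.0 CPM to 246 and 208 CPM, with log2 fold changes per gene from 1.27 to 1.82. Of 95 kappa variable genes tested, 53 were higher and 3 lower (*Igkv9-123*, *Igkv7-33* and *Igkv15-103*), against 31.3% and 32.8% of all genes. The sum over the kappa variable genes went from 422 and 541 CPM to 668 and 794 CPM. *Igkv1-135*, the most abundant in preB cells by counts, rose from 25.1 and 25.1 CPM to 57.5 and 70.1 CPM. *Igkv17-121* rose 3.61-fold, from 4.33 and 7.90 CPM to 19.6 and 24.5 CPM, whereas *Igkv1-117* stood at 43.3 and 26.8 CPM in proB and 25.7 and 32.0 CPM in preB cells, so that the stages overlapped. Without preB replicate 2 only 35 kappa variable genes were called higher, and without proB replicate 1 or 2 the count of lower ones was 12 or 9 rather than 3.

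Of 100 heavy chain variable genes tested, 62 were higher and 2 lower (*Ighv1-23* and *Ighv7-4*), against 31.3% and 32.8% of all genes. The sum over the heavy chain variable genes went from 616 and 671 CPM to 999 and 1064 CPM. *Ighv1-26* rose from 30.8 and 30.3 CPM to 53.9 and 61.7 CPM, *Ighv8-8* from 17.8 and 14.7 CPM to 42.9 and 38.3 CPM, and *Ighv14-4* from 6.81 and 7.31 CPM to 18.6 and 21.6 CPM. Fitted with all 8 libraries, 39 were called higher, and without proB replicate 1 or 2 the count of lower ones was 6 or 5. Of 9 heavy chain joining and diversity genes tested, 3 were higher (*Ighj2*, *Ighj3* and *Ighj4*) and 2 lower (*Ighd2-4* and *Ighd2-7*). These counts stand against the same 31.3% and 32.8% of all genes. Among the lambda variable genes *Iglv1* and *Iglv3* rose, the latter from 15.2 and 14.8 CPM to 80.2 and 83.7 CPM, while *Iglv2* at 91.8 and 32.1 CPM in proB and 62.4 and 75.9 CPM in preB cells overlapped. Counts per gene do not separate germline from rearranged transcripts, nor close relatives among the segments.

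The recombination enzymes moved in both directions. *Rag1*, the catalytic recombinase subunit, rose from 679 and 583 CPM to 1900 and 1982 CPM, 3.08-fold (log2 fold change 1.62 ± 0.09, adjusted p = 8.38e-07). Its partner *Rag2* stood at 128 and 123 CPM in proB and 153 and 157 CPM in preB cells (log2 fold change 0.30 ± 0.06, adjusted p = 0.00159), a call lost when the pre–proB libraries were fitted too (adjusted p = 0.293). *Dntt*, terminal transferase, which adds untemplated bases at heavy chain joints, fell from 865 and 892 CPM to 74.0 and 152 CPM, 7.78-fold. The preB replicates of *Dntt* differed from each other more than the proB replicates did, and both lay far below them. The DNA-bending cofactors *Hmgb1* and *Hmgb2* fell by 0.57 and 0.40 on the log2 scale.

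Of 16 end joining and break response genes, 6 were higher and 7 lower, near the 31.3% and 32.8% of all genes, with a median log2 fold change of -0.02. *Polm*, the polymerase that fills gaps at light chain joints, rose from 124 and 111 CPM to 496 and 488 CPM, 4.19-fold, while its relative *Poll* fell from 18.8 and 21.99 CPM to 5.78 and 7.69 CPM. The Ku subunits moved apart, *Xrcc6* (Ku70) from 396 and 368 CPM up to 599 and 609 CPM and *Xrcc5* (Ku80) from 42.6 and 43.4 CPM down to 20.8 and 22.4 CPM. *Lig4*, the ligase of this pathway, and *Paxx*, which stabilises Ku at ends, rose by 0.72 and 0.78 on the log2 scale. *Nbn* and *Rad50*, of the break-sensing MRN complex, fell by 1.07 and 0.38. *Atm*, *Trp53bp1* and *Nhej1* were not called.

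**Figure D3:**
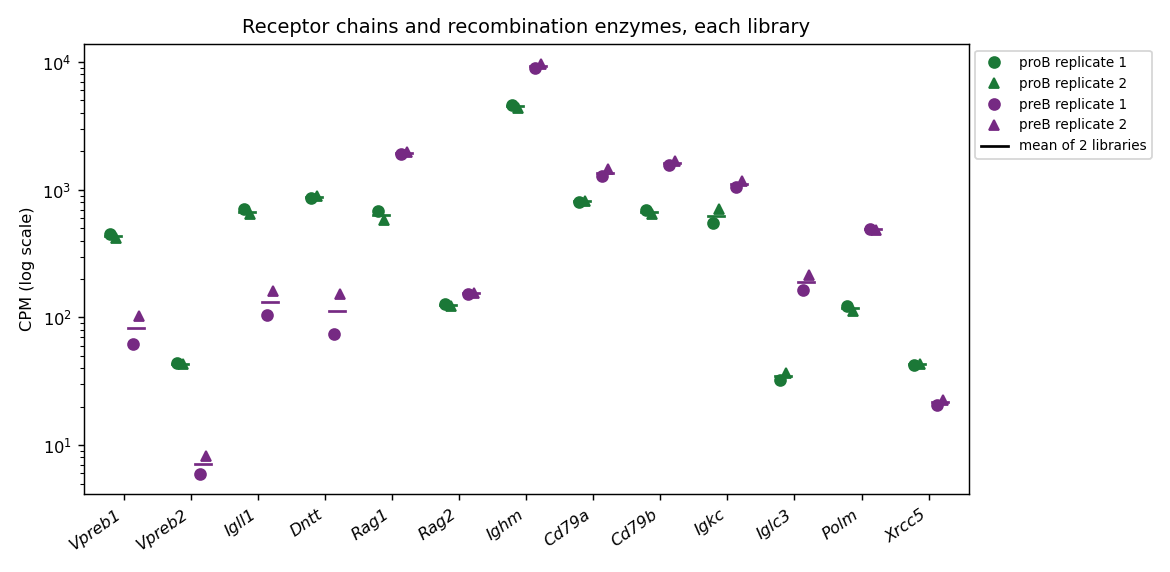
CPM (log scale) of 13 genes of the receptor chains and recombination enzymes in each library, circles for replicate 1 and triangles for replicate 2, proB in green and preB in purple, with lines at the mean of the 2 libraries. *Vpreb1*, *Vpreb2*, *Igll1*, *Dntt* and *Xrcc5* lie lower in both preB libraries and the other 8 genes lie higher.

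Around the interleukin-7 receptor, which supports growth and survival of proB cells, the receptor gene was higher in preB cells and several of its targets were lower. Of 22 genes tested of a list of 23, 7 were higher and 10 lower, against 31.3% and 32.8% of all genes. At least 2-fold, 3 were higher and 8 lower, against 6.54% and 11.1% of all genes. *Il7r* stood at 503 and 469 CPM in proB and 686 and 603 CPM in preB cells (log2 fold change 0.41 ± 0.08, adjusted p = 0.00152). *Jak3*, the kinase bound to the common γ chain, fell from 74.7 and 76.2 CPM to 32.9 and 32.9 CPM. *Ccnd2*, the cyclin D2 gene, fell from 269 and 274 CPM to 68.4 and 72.4 CPM, 3.85-fold, and *Cish*, a feedback inhibitor that STAT5 induces, from 7.31 and 7.37 CPM to 2.50 and 2.51 CPM. *Stat5b* was not called.

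Others of the same list rose. *Socs1*, which blocks JAK kinases, went from 6.81 and 6.25 CPM to 27.8 and 31.1 CPM, 4.51-fold, and the survival kinases *Pim1* and *Pim2* rose 2.09-fold and 4.04-fold. The receptors *Kit* and *Flt3*, for stem cell factor and Flt3 ligand, fell, *Kit* from 32.1 and 40.1 CPM to 3.40 and 4.84 CPM and *Flt3* from 21.3 and 28.7 CPM to 2.56 and 4.20 CPM. Both also belong to the early lymphoid progenitor markers above. *Cish* was added to the named genes after its values had been seen.

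Genes of pre-BCR signalling mostly rose, 25 of 31 higher and 5 lower against 31.3% and 32.8% of all genes, with a median log2 fold change of 0.43. *Rasgrp1*, which activates Ras downstream of diacylglycerol, rose from 58.2 and 53.9 CPM to 228 and 234 CPM, 4.12-fold (adjusted p = 1.53e-07). *Syk*, the kinase that binds the phosphorylated signal chains, rose from 932 and 849 CPM to 2314 and 2193 CPM, 2.53-fold. The brakes rose too, the inhibitory receptor *Cd72* from 424 and 389 CPM to 915 and 934 CPM and the adaptor *Dok3* from 319 and 283 CPM to 709 and 710 CPM.

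*Zap70*, the T cell relative of *Syk*, fell from 19.5 and 18.5 CPM to 4.94 and 5.89 CPM, 3.50-fold, and the Src-family kinase *Fyn* from 96.8 and 98.4 CPM to 52.2 and 54.9 CPM. *Sla2*, an adaptor that dampens antigen receptors, was low at 2.81 and 3.26 CPM in proB and 1.07 and 0.99 CPM in preB cells. *Itpkb*, an inositol phosphate kinase, and *Inpp5d*, the phosphatase SHIP1, fell by 0.42 and 0.26 on the log2 scale. *Plcg2*, the phospholipase of the pathway, stayed between 348 and 366 CPM and was not called. T cell markers were also lower in preB libraries, as given above.

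Of 54 transcription factors of the lineage tested, 30 were higher, against 31.3% of all genes, and 17 lower, a share near the 32.8% of all genes. *Klf2*, a factor of quiescence and trafficking, rose from 39.3 and 45.6 CPM to 177 and 199 CPM, 4.42-fold, and the ETS factor *Spib* from 820 and 733 CPM to 2426 and 2459 CPM, 3.15-fold. *Relb*, an NF-κB subunit, rose from 21.2 and 21.1 CPM to 59.0 and 64.6 CPM. *Ikzf3* (Aiolos), an Ikaros family member induced by the pre-BCR, rose from 215 and 196 CPM to 561 and 510 CPM, and *Irf4*, which acts in light chain recombination, from 510 and 476 CPM to 937 and 888 CPM, 1.85-fold.

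*Erg* itself fell from 149 and 131 CPM to 20.1 and 29.7 CPM, 5.63-fold (log2 fold change -2.49 ± 0.14, adjusted p = 1.13e-06). *Lef1*, a Wnt-pathway factor of proB cells, fell from 186 and 194 CPM to 54.0 and 57.6 CPM, and the Polycomb subunit *Bmi1* from 99.2 and 97.2 CPM to 59.9 and 65.0 CPM. *Runx2* fell from 27.7 and 32.2 CPM to 5.72 and 6.06 CPM and is also among the plasmacytoid dendritic markers above. *Ets1*, *Irf8*, *Bcl6*, *Zeb1*, *Pou2f1*, *Id2* and *Nr4a1* were not called.

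A further 4 factors were added for their known roles after their values had been seen. *Ebf1* and *Pax5*, which specify and hold the B lineage, were both called higher in preB cells, *Ebf1* from 258 and 262 CPM to 294 and 325 CPM (log2 fold change 0.25 ± 0.07, adjusted p = 0.00937) and *Pax5* from 177 and 175 CPM to 254 and 256 CPM (0.53 ± 0.06, adjusted p = 4.4e-05). The calls were lost under 4 and 2 of the 17 alternatives other than glmTreat, among them the fit with the pre–proB libraries (adjusted p = 0.476 and 0.146). *Foxo1*, which acts on the *Rag* genes, rose from 234 and 215 CPM to 384 and 418 CPM, and *Bach2*, a repressor of plasma cell fate, from 663 and 609 CPM to 1344 and 1119 CPM.

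Genes of cell growth fell together. *Myc*, the master factor of cell growth, dropped from 173 and 182 CPM to 20.6 and 24.4 CPM, 7.89-fold (log2 fold change -2.98 ± 0.08, adjusted p = 1.53e-07). All 28 ribosome biogenesis genes were lower, against 32.8% of all genes, with a median log2 fold change of -1.04. Of them, 15 fell by at least 2-fold, against 11.1% of all genes. *Ncl* (nucleolin) went from 1772 and 1899 CPM to 714 and 746 CPM, *Gnl3* (nucleostemin) from 152 and 157 CPM to 48.3 and 54.1 CPM, *Rrp1b* from 61.3 and 63.6 CPM to 19.95 and 20.7 CPM and *Fbl* (fibrillarin) from 169 and 180 CPM to 70.8 and 76.5 CPM. The motif CACGTG, the Myc E-box, chosen after the values were seen, was in 4 of the 22 ribosome biogenesis promoters in the table (18.2%), in 10.3% of the promoters of genes tested and in 7.24% of all promoters. It was at 18.2% among end joining promoters and 25.0% among promoters of p53 and its targets, so its share does not set the ribosome biogenesis genes apart.

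Glycolysis genes moved likewise, 16 of 18 lower and none higher, against 32.8% and 31.3% of all genes, with a median of -0.94. *Ldha*, lactate dehydrogenase A, fell from 593 and 662 CPM to 190 and 216 CPM, 3.10-fold, and *Gapdh* from 855 and 911 CPM to 357 and 387 CPM. *Hk2*, the inducible hexokinase, fell from 21.6 and 21.99 CPM to 6.91 and 7.05 CPM, and *Eno1* from 314 and 330 CPM to 151 and 171 CPM. The glucose transporter *Slc2a1*, at 12.3 and 14.6 against 12.2 and 12.1 CPM, and *Aldoc* were not called.

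Proliferation genes also fell. Of 50, 48 were lower and 1 higher, against 32.8% and 31.3% of all genes, and 1 was not called. The median log2 fold change was -0.61, with only 2 genes at least 2-fold lower, against 11.1% of all genes. *Ccnb1* (cyclin B1) fell from 336 and 336 CPM to 166 and 150 CPM, *Tk1* (thymidine kinase) from 114 and 117 CPM to 60.4 and 56.6 CPM, and the replicative helicase genes *Mcm6* from 696 and 724 CPM to 358 and 360 CPM and *Mcm2* from 389 and 394 CPM to 216 and 205 CPM. *Mki67*, the Ki-67 gene, was still abundant in preB cells, at 1645 and 1238 CPM against 2115 and 1947 CPM in proB (log2 fold change -0.49 ± 0.12, adjusted p = 0.00542). The exception that rose was *E2f2*, from 599 and 557 CPM to 887 and 808 CPM. *Foxm1* overlapped between the stages.

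The windows before *Mcm6*, *Mki67* and *Top2a* are shown as examples of genes of DNA replication and mitosis that fell together. *Top2a*, topoisomerase IIα, went from 1954 and 1960 CPM to 1511 and 1286 CPM and was added after its values had been seen. The 250 bases upstream of each start are on the minus strand of GRCm38, at chr1:128359706-128359955 (*Mcm6*), chr7:135716380-135716629 (*Mki67*) and chr11:99024190-99024439 (*Top2a*), from RefSeq (GRCm38.p6). Capitals mark the E2F motif variant TTTGGCGC, the CHR element TTTGAA and its variant TTCGAA, and CCAAT, on either strand, which do not overlap each other in these windows.
Mcm6: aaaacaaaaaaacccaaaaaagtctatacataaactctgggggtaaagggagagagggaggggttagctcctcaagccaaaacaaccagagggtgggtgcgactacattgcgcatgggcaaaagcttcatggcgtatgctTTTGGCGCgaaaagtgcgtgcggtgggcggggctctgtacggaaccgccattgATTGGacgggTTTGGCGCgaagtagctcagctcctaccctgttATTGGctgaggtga
Mki67: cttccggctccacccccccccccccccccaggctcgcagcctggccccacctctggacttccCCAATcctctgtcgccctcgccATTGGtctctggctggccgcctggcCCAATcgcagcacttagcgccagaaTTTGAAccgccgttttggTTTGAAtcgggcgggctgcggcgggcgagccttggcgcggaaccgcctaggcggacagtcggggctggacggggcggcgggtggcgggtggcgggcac
Top2a: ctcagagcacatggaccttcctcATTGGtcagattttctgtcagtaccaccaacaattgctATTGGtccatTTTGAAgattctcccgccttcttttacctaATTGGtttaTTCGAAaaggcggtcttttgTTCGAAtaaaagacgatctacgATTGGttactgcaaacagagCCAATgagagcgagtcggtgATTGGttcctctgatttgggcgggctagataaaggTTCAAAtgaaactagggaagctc

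*Mcm6* held the E2F variant at 2 places and CCAAT at 2, *Mki67* held TTTGAA at 2 places and CCAAT at 3, and *Top2a* held TTTGAA at 2, TTCGAA at 2 and CCAAT at 6 places. Of the 40 proliferation genes with a promoter in the table, 77.5% held CCAAT, 42.5% TTTGAA, 10% TTCGAA, 15.0% TTTGGCGC and 10% TTTCCCGC. Among the 9914 genes tested with a promoter those shares were 39.5%, 12.1%, 2.19%, 1.09% and 2.15%, and among all 27025 promoters 37.9%, 18.1%, 1.57%, 0.537% and 1.11%. Such matches are descriptions of the letters, not binding sites.

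Cell cycle inhibitors and quiescence genes mostly rose. Of 19 tested, 15 were higher and 2 lower, against 31.3% and 32.8% of all genes, with a median log2 fold change of 0.50. *Btg2* and *Btg1*, antiproliferative partners of deadenylation, rose from 198 and 186 CPM to 601 and 652 CPM and from 310 and 309 CPM to 896 and 1007 CPM. *Txnip*, which limits glucose uptake, rose from 191 and 186 CPM to 473 and 581 CPM. *Cdkn1a* (p21), a target of p53, went down from 36.9 and 45.9 CPM to 19.3 and 18.9 CPM, as did *Rbl1* (p107), by 0.42 on the log2 scale. Of the other *Cdkn* genes tested, *Cdkn1b* and *Cdkn2d* rose by 0.98 and 0.42 on this scale, and *Cdkn1c* and *Cdkn2c* were not called.

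**Figure D4:**
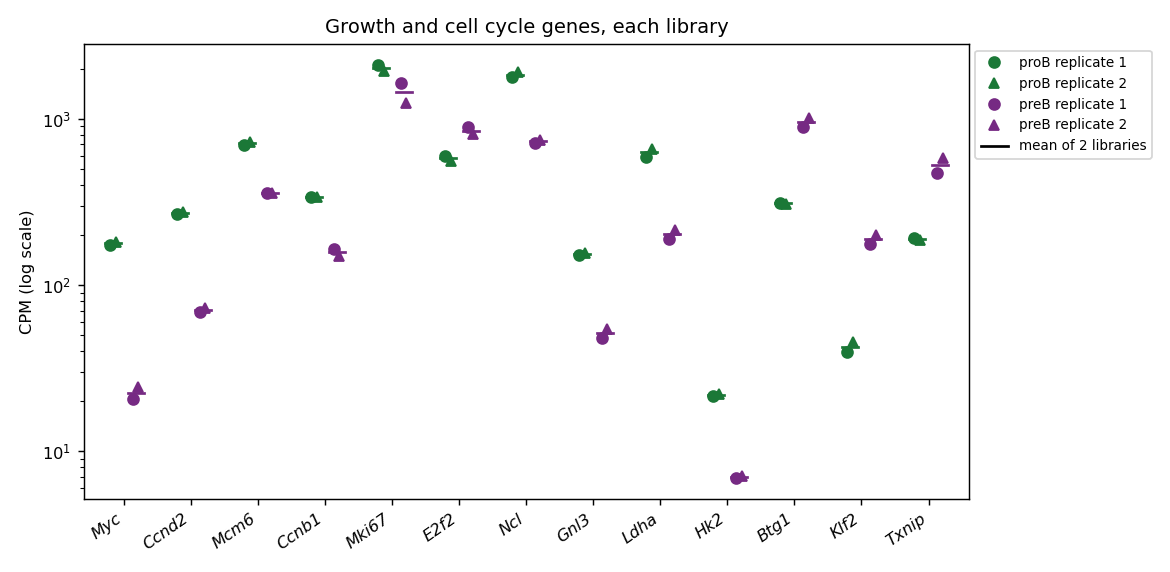
CPM (log scale) of 13 growth, metabolism and cell cycle genes in each library, circles for replicate 1 and triangles for replicate 2, proB in green and preB in purple, with lines at the mean of the 2 libraries. *E2f2*, *Btg1*, *Klf2* and *Txnip* lie higher in both preB libraries and the other 9 genes lie lower.

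The cell surface changed towards later stages. Of 34 stage markers, 24 were higher and 9 lower, against 31.3% and 32.8% of all genes. The list includes sort genes such as *Ptprc*, *Spn* and *Cd24a*. *Il2ra* (CD25), a marker of preB cells, rose from 69.1 and 68.1 CPM to 300 and 315 CPM, 4.49-fold (log2 fold change 2.17 ± 0.06, adjusted p = 1.53e-07). *Cd2* rose from 23.6 and 21.7 CPM to 122 and 132 CPM, *Cd55* (decay-accelerating factor) from 23.1 and 23.5 CPM to 97.2 and 97.5 CPM, and *Cd38* from 116 and 106 CPM to 398 and 402 CPM. *Enpep*, the early B cell antigen BP-1, fell from 68.5 and 67.1 CPM to 38.4 and 34.8 CPM. *Bst1* was not called.

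Of 20 homing and adhesion receptors tested, 11 were higher and 8 lower, against 31.3% and 32.8% of all genes. *Cnr2*, the cannabinoid receptor that helps hold immature B cells in marrow sinusoids, rose from 11.9 and 12.6 CPM to 68.3 and 82.0 CPM, 6.14-fold. *S1pr1*, the egress receptor for sphingosine 1-phosphate, rose from 31.7 and 33.4 CPM to 92.9 and 106 CPM, *Cxcr4*, which retains cells near CXCL12, from 325 and 312 CPM to 546 and 591 CPM, and *P2ry10* from 7.37 and 5.55 CPM to 17.6 and 19.4 CPM. The integrins *Itgb1* and *Itgal* fell by 0.74 and 1.00 on the log2 scale. *Ccr9*, also a plasmacytoid dendritic marker, fell from 13.9 and 19.3 CPM to 4.53 and 5.30 CPM.

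MHC class II presentation rose, with 12 of 14 genes higher and none lower, against 31.3% and 32.8% of all genes. The median log2 fold change was 0.53. *Cd74*, the invariant chain, rose from 179 and 229 CPM to 444 and 524 CPM, 2.38-fold. *H2-Ob* and *H2-DMb2*, of the peptide-loading accessory molecules, rose from 169 and 150 CPM to 276 and 288 CPM and from 5.96 and 7.15 CPM to 16.3 and 20.6 CPM. *H2-Aa*, the α chain of I-A, rose from 64.3 and 69.5 CPM to 95.3 and 96.2 CPM. *H2-DMa* and *H2-Eb2* were not called.

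CCAAT is the Y box of class II promoters, and 90.0% of the 10 promoters of this list in the table held it, against 37.9% of all. The *H2-Aa* window, 250 bases upstream on the minus strand at chr17:34287824-34288073 (GRCm38.p6, RefSeq), is shown as the example, with the motif in capitals on the opposite strand, 48 bases before the start.
H2-Aa: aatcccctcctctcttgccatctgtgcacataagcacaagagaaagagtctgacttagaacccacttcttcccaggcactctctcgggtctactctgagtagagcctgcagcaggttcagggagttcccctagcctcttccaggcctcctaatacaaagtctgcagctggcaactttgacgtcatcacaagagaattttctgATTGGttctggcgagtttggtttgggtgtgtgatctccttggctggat

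Survival and death genes of the Bcl2 family were called in both directions, 5 of 14 tested higher and 5 lower, close to the 31.3% and 32.8% of all genes. *Bmf*, which promotes death, rose from 73.6 and 69.1 CPM to 220 and 250 CPM, 3.29-fold. The survival genes *Bcl2l1* (Bcl-xL) and *Mcl1* rose from 104 and 93.4 CPM to 207 and 216 CPM and from 282 and 287 CPM to 491 and 533 CPM. *Bcl2* fell from 12.7 and 16.4 CPM to 6.25 and 5.54 CPM, and *Bok* from 16.03 and 16.9 CPM to 1.07 and 1.92 CPM, 10.99-fold. *Bax*, *Bad*, *Pmaip1* and *Bcl2a1b* were not called.

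Of 19 genes tested from a list of p53 and its DNA damage targets, 8 were higher and 3 lower, against 31.3% and 32.8% of all genes. *Trp53inp1* rose from 446 and 424 CPM to 912 and 935 CPM, *Plk2* from 11.1 and 11.4 CPM to 25.9 and 28.1 CPM, *Gadd45a* from 8.33 and 8.76 CPM to 18.9 and 18.7 CPM, and *Mdm2*, the p53 ubiquitin ligase, from 118 and 114 CPM to 184 and 179 CPM. Lower were *Cdkn1a* (above), *Phlda3*, from 2.81 and 2.88 CPM to 0.536 and 0.758 CPM, and *Ei24* by 0.24 on the log2 scale. *Trp53* itself, at 193 and 213 against 180 and 185 CPM, was not called.

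**Figure D5:**
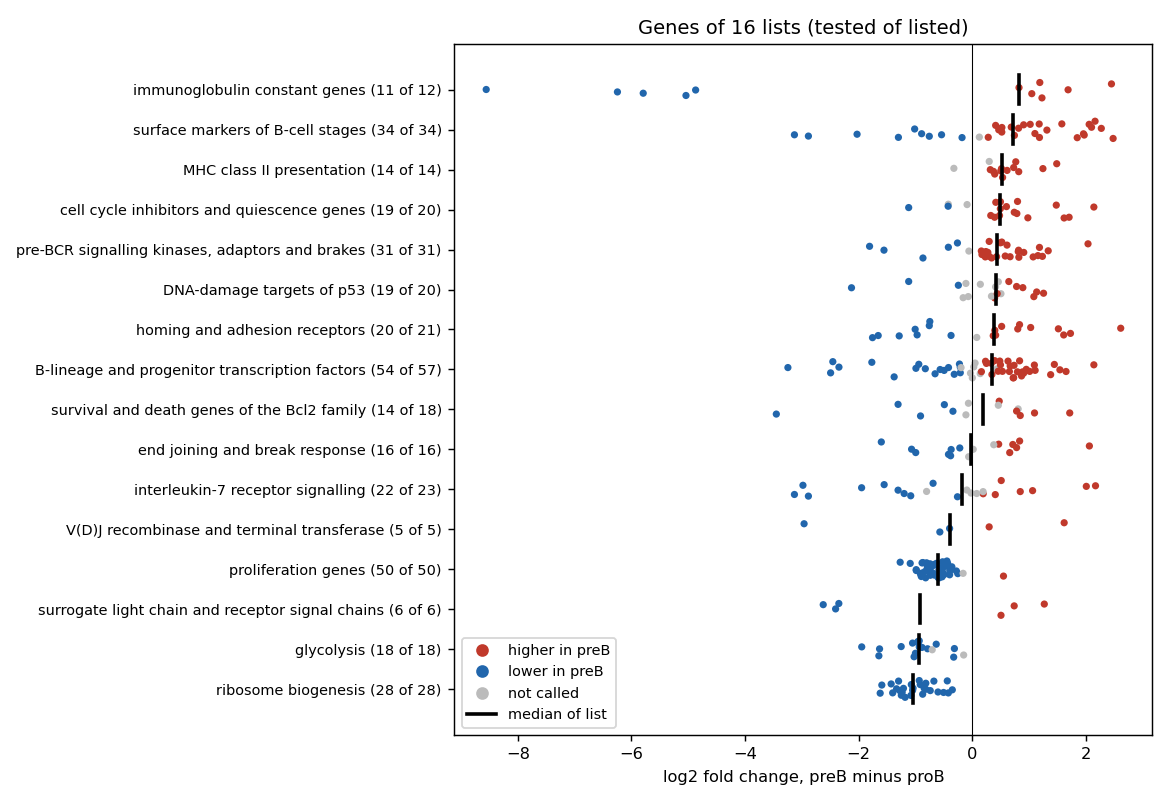
Log2 fold change between preB and proB cells of each tested gene of the 16 lists, with tested and listed numbers in brackets, ordered by the list median (black bar). Red points were higher, blue lower and grey not called at an adjusted p below 0.05. The medians run from -1.04 (ribosome biogenesis) to 0.83 (immunoglobulin constant genes).

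Outside the lists, the genes with the lowest p-values and the largest changes were chosen among those whose libraries did not overlap. Higher in preB cells were *Reln*, an extracellular matrix glycoprotein, from 33.3 and 24.7 CPM to 256 and 233 CPM, 8.44-fold, and *Col5a3*, a type V collagen chain, from 72.1 and 62.6 CPM to 532 and 493 CPM, 7.60-fold. The cAMP phosphodiesterase *Pde4c* rose from 9.39 and 8.44 CPM to 63.9 and 57.7 CPM, and *Cacna1e*, a voltage-gated calcium channel subunit, from 64.6 and 61.1 CPM to 342 and 305 CPM. *Slfn2*, a Schlafen family gene of lymphocyte quiescence, rose from 26.8 and 34.9 CPM to 155 and 209 CPM.

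Further genes of this set that rose were *Samhd1*, which hydrolyses deoxynucleotides, from 129 and 131 CPM to 474 and 505 CPM, *Trib2*, a pseudokinase, from 64.4 and 65.3 CPM to 233 and 243 CPM, and *Klhl14* from 16.5 and 17.8 CPM to 92.6 and 99.0 CPM. The predicted gene *Gm20559* rose from 39.2 and 36.5 CPM to 158 and 164 CPM.

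Lower in preB cells were *Adgrg3*, an adhesion G protein-coupled receptor, from 71.1 and 80.8 CPM to 6.85 and 8.92 CPM, 9.63-fold, and *Emp1*, an epithelial membrane protein gene, from 65.4 and 68.5 CPM to 4.65 and 8.45 CPM, 10.2-fold. *Txnrd3*, a thioredoxin reductase, fell from 61.5 and 66.4 CPM to 8.70 and 9.85 CPM, and *Gfra2*, a co-receptor for neurturin, from 197 and 193 CPM to 35.2 and 41.9 CPM. *Ptpn7*, a haematopoietic tyrosine phosphatase, fell from 161 and 162 CPM to 49.4 and 48.9 CPM, and 2900026A02Rik from 149 and 146 CPM to 33.4 and 37.8 CPM. The other genes of lowest p or largest fall were *Myc*, *Ccnd2*, *Lef1*, *Jchain* and the class-switched constant genes.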

How the data were processed

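The 2 control stages, proB and preB, each gave 2 RNA libraries. The authors used Trim Galore for adapters, STAR for alignment to mm10 and featureCounts for counting per gene, with Rsubread's built-in Entrez annotation. The deposited values are whole-number counts without normalization. The submitters' processing notes also name CASAVA 1.8.2. Strand use, multi-mapping reads and the version of STAR were not given in the sources used here.

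Testing of genes at 0.5 CPM or more in 2 or more of the 4 libraries was done with edgeR 4.0.16 (R 4.3.3), with TMM scaling (factors 0.984 to 1.02), glmQLFit in its legacy form and glmQLFTest, and Benjamini-Hochberg adjustment over all genes tested. With 2 residual degrees of freedom, the spread was moderated by 7.10 prior ones. An exact permutation test of 2 against 2 cannot give a p below 0.33. Standard errors (SE) are on the log2 scale. Folds are ratios of mean CPM. Fitting was tested on simulated counts with 12783 genes tested, where 198 of 200 changed genes and 21 unchanged genes were called. Far fewer genes changed there than were called in these data, and none had low counts. The simulation therefore does not measure how many real changes were found.

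Symbols and coordinates came from RefSeq (GRCm38.p6) for 25275 identifiers and from GENCODE for 18, and 1886 without a symbol held 0.632% of the counts of the 4 libraries. The 16 gene lists, 9 marker lists, motifs and members were chosen with earlier results of these data known. Named genes were a core set, in each direction the 10 called genes of lowest p and the 8 of largest change with libraries that do not overlap, up to 4 called genes of each list per direction with its uncalled genes, the 5 most abundant variable genes of each kind (and 5 heavy ones of lowest p), and the sort genes. Of the genes this rule takes, 2 are not reported here. Other genes are marked in the text or stand in counts of 5 or fewer.

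The 18 alternatives were DESeq2 1.42.0 size factors, total counts, 3 other filters, DESeq2, limma-voom (limma 3.58.1), edgeR's version 4 method, robust estimation, all 6 *Erg* fl/fl or all 8 libraries, no immunoglobulin genes, a replicate block, each library left out in turn, and glmTreat. Pre–proB libraries entered only the 6- and 8-library fits. Figures were drawn with matplotlib 3.10.9.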

Additional observations from a re-analysis of the deposited data

How the results depend on the processing

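Of 18 alternatives, all but 1 kept the counts of genes higher (4060) and lower (4256) in preB cells within 1.5 times. The exception was the test against a log2 fold change of 1 (glmTreat), with 370 higher and 717 lower. Leaving out 1 library at a time gave 3237 to 3891 higher and 3592 to 4013 lower genes, with the lone library of a stage assumed to vary like the other stage. DESeq2 called 3265 and 3419, and total counts in place of TMM, which moved the median of all genes to -0.04, called 3705 and 4557. No gene called with all 4 libraries was called in the other direction under any of the 18. Of 357 list and marker genes called, 293 were called under every alternative other than glmTreat that tested them, and 20 were lost in the fit of 6 *Erg* fl/fl libraries. Among the genes named by the core, lowest p, largest change and variable gene rules, 2 changed sign: *Igkv1-117*, with a log2 fold change of 0.087 without proB replicate 1 and -0.612 without proB replicate 2, and *Iglv2*, with 1.08 and -0.44. Both were uncalled with all 4 libraries, but *Iglv2* passed the threshold in opposite directions in these 2 fits (adjusted p = 1.79e-20 and 5.14e-05), and *Igkv1-117* was called lower without proB replicate 2 (9.2e-07). The cause was not tested. Replicate numbers are shared by the labels but not said to mark a mouse. Deviations of same-numbered libraries correlated at 0.14 over 9948 genes, and the fit with a replicate block called 4271 genes higher and 4431 lower. With 2 libraries per stage, differences between mice are poorly sampled, and counts per gene cannot show isoforms or rearranged segments.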
